A study of Mus musculus with 12 samples.

Results

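The members of this set were 10 genes used as markers of radial glia and astroglia, namely Nes, Vim, Gfap, Fabp7, Slc1a3, Slc1a2, Aqp4, Aldh1l1, Sox9 and Hopx, taken by gene symbol from a table of 57010 mouse genes. They were followed in NE-4C cells, an adherent neural progenitor line from embryonic mouse brain that lacks p53, by bulk RNA sequencing. In 1 clonal Faf2 knockout line (KO) a pair of guide RNAs removed 1 exon of Faf2. KO cells and the parental cells (WT) were each grown untreated (NO) or given 1 µM all-trans retinoic acid (RA) for 24 h. RA cells were collected on day 3 after induction and untreated cells without induction, so effects of RA and of time in culture cannot be told apart. The 4 groups, WT NO, WT RA, KO NO and KO RA, held 3 libraries each, 12 in all. Since the knockout was a single clone, an effect of the deletion and a difference between that clone and the parental cells cannot be told apart.

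Radial glia are the elongated progenitors of the developing brain, which give rise first to neurons and later to astrocytes. Nestin and vimentin build their intermediate filaments, Fabp7 carries fatty acids within them, and Slc1a3 clears glutamate at their membrane. Gfap, Aqp4, Slc1a2 and Aldh1l1 belong mostly to the astrocytes that arise later, Sox9 helps progenitors switch to making glia, and Hopx is best known from outer radial glia. None of these genes is restricted to neural cells, and vimentin and Sox9 are also used by mesenchyme.

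The library totals ran from 17370069 to 30738717 estimated counts. Faf2 itself stood at 36.0 to 50.0 CPM (counts scaled to a common library size) in WT NO and 21.0 to 25.4 in KO NO, while WT RA (35.1 to 49.1) and KO RA (18.7 to 36.1) overlapped. Its log2 fold change was −0.87 ± 0.27 (standard error) in the untreated cells, with an adjusted p of 0.179 by edgeR, so the table shows a lower level and not an absent transcript. Reads from the exons that the deletion leaves can still be counted. KO RA replicate 3 stood apart from the other 11, with a TMM scaling factor of 0.394 against 0.872 to 1.28, 23.5% of its counts from mitochondrial genes against 9.10% to 17.7%, and 62.5% in its 100 highest genes against 37.1% to 50.4%. The main results of the members that use KO RA are therefore given with and without that library. Each KO RA call from all 12 libraries for a gene named below outside the set was also made without it. The adjusted p was then at most 0.0448 by edgeR, and the fold change moved by more than 1.5 times in Tnc and Fabp4 alone. The bulk values cannot tell fewer cells that carry a marker from less RNA per cell. The 12 libraries give 3 values a group, and edgeR calls rest on p-values adjusted by Benjamini and Hochberg over the 16502 genes tested, with 0.05 as the limit.

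Of the 10 members, 8 passed the filter on low counts and Gfap and Aqp4 did not. Because the deposited values are scaled by transcript length, levels can be set side by side between genes on the CPM scale. Vim was the highest member in each of the 4 groups, with 204 ± 26.3 CPM (SD, n = 3) in untreated and 331 ± 112 in RA-treated WT cells, and 130 ± 25.5 and 542 ± 103 in the matching KO groups. In the untreated groups Nes, Slc1a3 and Hopx followed in that order without overlap between neighbours, and the remaining members stayed below 1 CPM except for Aldh1l1 in 1 library. After RA, Fabp7 and Sox9 entered this order. They overlapped each other in WT RA, both above Hopx. In KO RA Fabp7 lay below Nes in replicates 1 and 2 (40.6 and 15.6 CPM against 64.2 and 56.2). In replicate 3 alone it lay above Nes (155 against 75.0). Of the 4 genes that belong mostly to later astrocytes, Gfap and Aqp4 were at or near the detection floor in each group and Slc1a2 and Aldh1l1 stayed below 1 CPM on average.

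**Figure D1:**
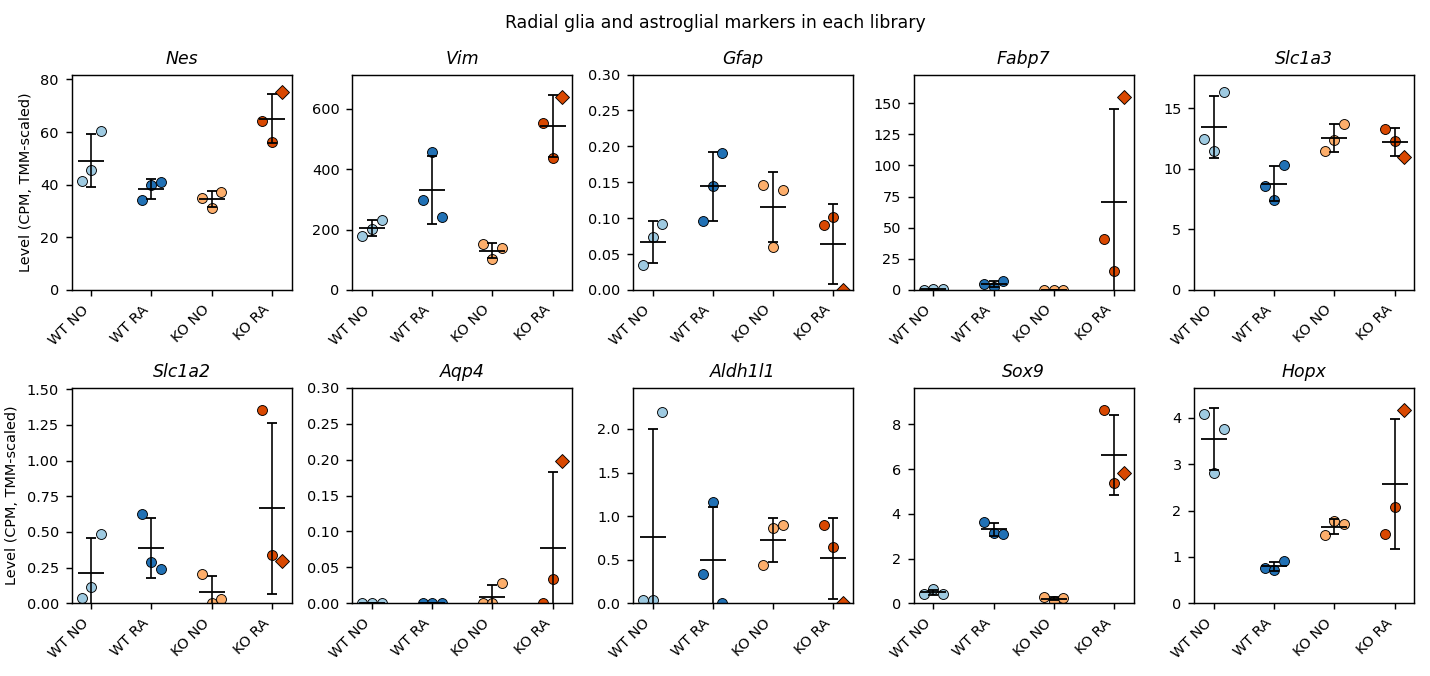
Level of each member in each library (vertical axis, CPM with TMM scaling, linear from 0 and with its own range in each panel) for the 4 groups on the horizontal axis; circles are libraries, the diamond is KO RA replicate 3, and the bar and whiskers are the mean ± SD of 3. Vim, Fabp7 and Sox9 are highest in KO RA, Hopx is lowest in WT RA, and Gfap and Aqp4 stay below 0.3 CPM.

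The comparison of RA-treated with untreated cells asks which markers moved as the cells were pushed to differentiate. Nes, Vim, Fabp7 and Sox9 rose in KO cells, which is 4 of the 8 tested members called higher, where 3.89% of all tested genes were called higher. Genes that RA is known to induce responded in both genotypes, with 2 of 9 tested called higher in WT cells and 5 higher and 1 lower in KO cells, among them the RA-degrading enzyme Cyp26a1 (2.49 ± 0.39 and 3.72 ± 0.39 on the log2 scale, edgeR adjusted p = 0.0339 and 0.00062). In WT cells 1 of 8 members, Sox9, was called higher, where 0.321% of all genes were. The median log2 fold change of the 8 members was 1.49 in KO cells and 0.17 in WT cells, against 0.11 and −0.0084 over all genes tested. Without KO RA replicate 3 the same 4 genes rose in KO cells, beside 8.48% of all genes, and Fabp7 and Sox9 rose and Hopx fell in WT cells, beside 5.65% called higher and 5.13% called lower. That library widened the spread estimated for all groups, with a median standard error over genes of 0.429 for the WT RA response with it and 0.268 without it. Both contrasts were estimated in 1 fit but share no libraries.

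**Figure D2:**
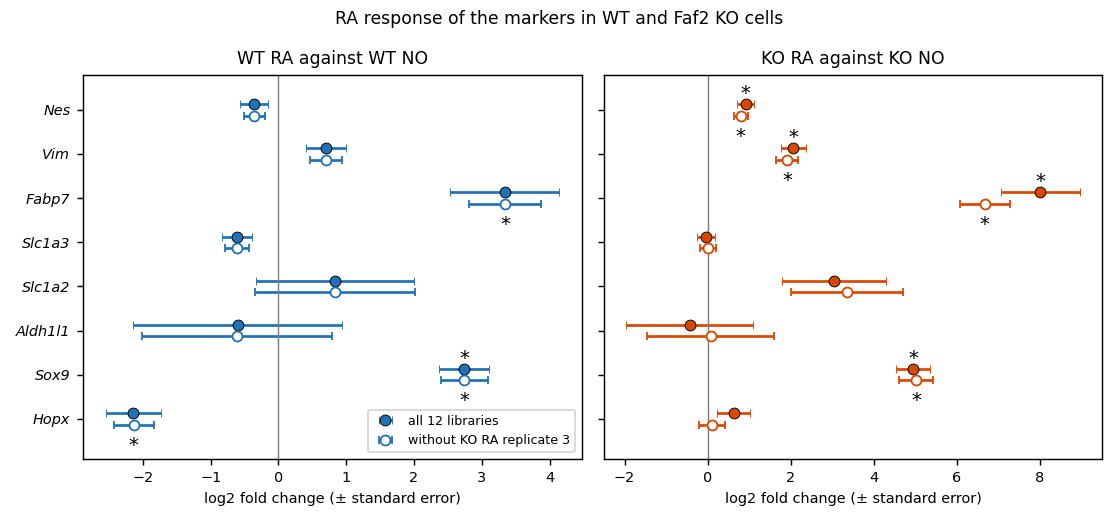
Log2 fold change after RA (horizontal axis, ± standard error) of the 8 tested members in WT cells (left) and KO cells (right), from all 12 libraries (filled) and without KO RA replicate 3 (open); an asterisk above or below a point marks an adjusted p under 0.05. Nes, Vim, Fabp7 and Sox9 carry an asterisk in KO cells from both fits, and Sox9 does in WT cells.

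Among the filament genes, Nes (ENSMUSG00000004891, chr3:87878385-87887758, plus strand, GRCm39) encodes nestin, the filament protein by which neural progenitors are usually recognised. Its CPM was 41.5, 45.6 and 60.5 in WT NO, 34.1, 39.9 and 40.9 in WT RA, 35.0, 31.3 and 37.2 in KO NO, and 64.2, 56.2 and 75.0 in KO RA. KO NO did not reach the lowest WT NO value, and KO RA began above the highest value of WT RA and of KO NO. Nes rose 1.89-fold after RA in KO cells (log2 fold change 0.92 ± 0.21, edgeR adjusted p = 0.0304), a call kept in 5 of the 12 fits that left out 1 library and lost without WT NO replicate 2, any WT RA library or any KO NO library. In WT cells the log2 fold change was −0.36 ± 0.21 with an adjusted p of 0.532. KO RA exceeded WT RA by 0.76 ± 0.21 on the log2 scale with an adjusted p of 0.106, and without KO RA replicate 3 by 0.65 ± 0.17 with an adjusted p of 0.038. The KO RA values depend on the scaling of replicate 3, since with library totals alone it held 29.5 CPM, the lowest of its group. With library totals the RA response of Nes in KO cells was 0.59 with an adjusted p of 0.562.

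Vim (ENSMUSG00000026728, chr2:13578738-13587639, plus strand) encodes vimentin, the filament protein that radial glia share with mesenchymal cells. Its CPM was 178, 202 and 231 in WT NO, 297, 456 and 240 in WT RA, 151, 102 and 138 in KO NO, and 553, 435 and 639 in KO RA. All 3 WT RA libraries exceeded the WT NO libraries and the KO RA libraries lay far above the KO NO libraries, but KO RA and WT RA overlapped in 1 library of each. Vim rose 4.16-fold after RA in KO cells (log2 fold change 2.06 ± 0.30, adjusted p = 0.00472) and 3.76-fold without KO RA replicate 3 (adjusted p = 0.00137). In WT cells the log2 fold change after RA was 0.70 ± 0.29 with an adjusted p of 0.351. KO RA against WT RA gave 0.71 ± 0.29 (adjusted p = 0.247), and 0.57 ± 0.26 without KO RA replicate 3 (adjusted p = 0.187). With library totals alone the KO value was 1.72 with an adjusted p of 0.0851, and KO RA replicate 3 was again the lowest of its group, at 251 CPM. The ratio of Vim to Nes, which no library scaling alters, lay between 3.26 and 4.43 in the 6 untreated libraries and between 5.86 and 11.4 in the 6 RA libraries, so the ratio was higher in each RA library than in any untreated one. In KO RA it was 8.62, 7.74 and 8.52, so replicate 3 did not stand apart by this measure.

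Gfap (ENSMUSG00000020932, chr11:102778159-102791738, minus strand), the filament gene of mature and reactive astrocytes, held 0.326 to 4.70 estimated counts per library, with the lowest value in KO RA replicate 3. A count of 3, the upper limit that a count of 0 allows, corresponds to 0.0838 to 0.297 CPM over the 12 libraries. Gfap was thus at or near this floor in each group, and no difference in it was detectable at this depth.

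Fabp7 (ENSMUSG00000019874, chr10:57660956-57664554, plus strand) encodes the brain fatty acid binding protein, a marker of radial glia that responds to Notch signalling. The 250 bases before its annotated start, at chr10:57660706-57660955 on the plus strand of GRCm39, are shown because Fabp7 had the largest RA response of the members. Capitals mark the retinoic acid receptor half-sites AGGTCA and AGTTCA, the RBPJ core TGGGAA and the SOX core ACAAAG on either strand.
Fabp7: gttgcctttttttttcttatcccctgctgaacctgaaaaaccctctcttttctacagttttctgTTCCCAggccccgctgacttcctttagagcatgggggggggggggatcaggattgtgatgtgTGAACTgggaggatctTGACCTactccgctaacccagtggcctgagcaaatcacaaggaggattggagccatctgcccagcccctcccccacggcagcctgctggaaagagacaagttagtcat
The window held TGACCT from base −108 (AGGTCA on the other strand), TGAACT from base −124 (AGTTCA on the other strand) and TTCCCA from base −186 (TGGGAA on the other strand), counting back from −1 just before the start. Of 21770 windows of the same length before protein-coding genes, 13.1% held AGGTCA, 12.1% AGTTCA, 22.7% TGGGAA and 15.9% ACAAAG, so each of these matches is common by its letters alone. A match is a stretch of letters and not evidence of binding.

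Fabp7 was at 0.387, 0.517 and 0.488 CPM in WT NO, 5.05, 2.04 and 7.12 in WT RA, 0.146, 0.267 and 0.391 in KO NO, and 40.6, 15.6 and 155 in KO RA. The RA libraries exceeded the untreated libraries of the same genotype without exception, and each KO RA library exceeded each WT RA library. Within KO RA replicate 3 was the highest and replicate 2 the lowest, and the SD of the group, 74.4 CPM, exceeded its mean of 70.4. Fabp7 rose 257-fold in KO cells after RA (log2 fold change 8.0 ± 0.95, adjusted p = 0.00157), and 102-fold without KO RA replicate 3 (6.67 ± 0.61, adjusted p = 0.000162). The untreated libraries held 4.51 to 15.5 estimated counts of this short gene (1279 exonic bases), so its folds after RA rest on a low base. In WT cells the fold was 10.1 (log2 fold change 3.34 ± 0.80) with an adjusted p of 0.111, and 0.00572 without that library. KO RA exceeded WT RA by 14.8-fold (3.89 ± 0.76, adjusted p = 0.0376), and by 5.90-fold without KO RA replicate 3 (2.56 ± 0.49, adjusted p = 0.0124). Fabp7 was the only member called in that comparison, where 1.24% of all genes were, and the call was kept in 3 of the 12 fits that left out 1 library, those without WT NO replicate 3, KO RA replicate 2 or KO RA replicate 3. In CPM from library totals alone KO RA replicate 3 was still the highest of the group, and its Fabp7 was 2.07 times its own Nes, against 0.633 and 0.277 in the other KO RA libraries and at most 0.174 in WT RA.

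Sox9 (ENSMUSG00000000567, chr11:112673009-112678586, plus strand) encodes a SoxE transcription factor needed for the onset of gliogenesis and also central to cartilage and neural crest. Its 250-base window, at chr11:112672759-112673008 on the plus strand, is printed beside that of Fabp7 because both genes rose after RA.
Sox9: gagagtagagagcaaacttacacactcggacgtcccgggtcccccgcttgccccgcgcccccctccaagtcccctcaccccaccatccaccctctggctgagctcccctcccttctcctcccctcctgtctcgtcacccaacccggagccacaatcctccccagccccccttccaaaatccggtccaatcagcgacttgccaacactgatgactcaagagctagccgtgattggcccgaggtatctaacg
It held none of these 4 motifs and 13 CpG pairs, where the Fabp7 window held 3 and the median of all windows was 8. These windows hold only the nearest bases, so the absence of a match says nothing about a factor that acts elsewhere.

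Sox9 was at 0.423, 0.628 and 0.427 CPM in WT NO, 3.65, 3.15 and 3.11 in WT RA, 0.264, 0.118 and 0.251 in KO NO, and 8.67, 5.38 and 5.85 in KO RA. The groups formed 4 separate ranges, with KO NO lowest, then WT NO, WT RA and KO RA. Sox9 rose 6.66-fold after RA in WT cells (log2 fold change 2.74 ± 0.37, adjusted p = 0.0196) and 30.7-fold in KO cells (4.94 ± 0.41, adjusted p = 0.000191). Leaving out KO RA replicate 3 gave 6.70-fold and 32.3-fold. The KO response was called under each of the 19 settings tried that could test it, and the WT response under 11 of 19, with the WT call lost when any 1 of the 6 WT libraries was left out. KO NO lay below WT NO by 1.20 ± 0.39 on the log2 scale with an adjusted p of 0.203, and KO RA above WT RA by 1.01 ± 0.35 with an adjusted p of 0.185, or by 1.08 ± 0.35 with an adjusted p of 0.0762 without KO RA replicate 3, so neither genotype difference passed the test. With library totals alone the WT RA and KO RA ranges overlapped.

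Hopx (ENSMUSG00000059325, chr5:77234831-77263022, minus strand) encodes a small homeodomain protein that does not bind DNA itself. Its CPM was 4.09, 2.81 and 3.75 in WT NO, 0.769, 0.727 and 0.908 in WT RA, 1.47, 1.78 and 1.70 in KO NO, and 1.49, 2.08 and 4.16 in KO RA. The WT NO libraries were above all others except KO RA replicate 3, and the WT RA libraries were below all others. The log2 fold change after RA was −2.14 ± 0.41 in WT cells (adjusted p = 0.0556) and 0.62 ± 0.39 in KO cells (adjusted p = 0.335), or 0.11 ± 0.31 without KO RA replicate 3 (adjusted p = 0.857). Without KO RA replicate 3 the WT value was −2.14 ± 0.29 with an adjusted p of 0.00323, so Hopx fell in WT cells in that fit. In the same fit KO NO was below WT NO (−1.10 ± 0.28, adjusted p = 0.0366, a fit in which 4.35% of all genes were called lower) and KO RA above WT RA (1.15 ± 0.32, adjusted p = 0.046). With all 12 libraries these 2 differences were −1.10 ± 0.39 (adjusted p = 0.254) and 1.66 ± 0.41 (adjusted p = 0.075).

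Of the transporters, Slc1a3 (ENSMUSG00000005360, chr15:8663604-8741595, minus strand) encodes GLAST, the glutamate transporter of radial glia. It was at 12.5, 11.5 and 16.3 CPM in WT NO, 8.56, 7.47 and 10.3 in WT RA, 11.5, 12.4 and 13.7 in KO NO, and 13.3, 12.3 and 11 in KO RA. WT RA was the low group, below all other libraries, and the other 3 groups overlapped. The log2 fold change after RA was −0.61 ± 0.22 in WT cells (adjusted p = 0.258) and −0.039 ± 0.21 in KO cells (adjusted p = 0.923), or 0.017 ± 0.19 without KO RA replicate 3. EdgeR with all 12 libraries called Slc1a3 in no comparison, and limma-voom called it lower after RA in WT cells (−0.45, adjusted p = 0.0471). Slc1a2 (ENSMUSG00000005089, chr2:102488574-102621129, plus strand), which encodes GLT-1, the main glutamate transporter of mature astrocytes, was at 0 to 0.488 CPM in the 6 untreated libraries and 0.239 to 1.35 in the 6 RA libraries. Its ranges overlapped between WT NO and WT RA, and its largest log2 fold change, 3.04 ± 1.25 in KO cells after RA, had an adjusted p of 0.166 by edgeR, 0.117 without KO RA replicate 3 and 0.0221 by limma-voom.

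Aldh1l1 (ENSMUSG00000030088, chr6:90463409-90577185, plus strand), a folate enzyme widely used to label astrocytes, reached 2.20 CPM in WT NO replicate 3 against 0.035 and 0.037 in the other WT NO libraries. In WT RA it was 0.337, 1.16 and 0, in KO NO 0.439, 0.859 and 0.893, and in KO RA 0.903, 0.647 and 0. The scatter within groups covered the differences between them, with standard errors of 1.5 to 1.55 on the log2 scale in the 4 pairwise comparisons. Aqp4 (ENSMUSG00000024411, chr18:15522451-15544039, minus strand), the water channel of astrocyte endfeet, was at 0 in 9 libraries and held at most 2.0 estimated counts in any library, below the floor of 3 counts.

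The comparison of KO with WT cells asks whether the deletion changed the markers before and after RA. In untreated cells none of the 8 tested members was called by edgeR, where 1.14% of all genes were, and 4 had an unadjusted p under 0.05, as had 12.2% of all genes. Limma-voom called 1 of them, where it called 21.6% of all genes, and DESeq2 none, where it called 6.15%. All 8 log2 fold changes were below 0, with a median of −0.71, against −0.020 and 48.3% above 0 over all genes, and 4 members (Nes, Vim, Sox9 and Hopx) had KO NO values below all WT NO values, where 15.2% of all genes did. The signs of Slc1a3, Slc1a2 and Aldh1l1 turned when WT NO replicate 3 was left out, so this tally rests on 5 members. The untreated WT and KO ranges overlapped for Nes when library totals alone were used. After RA all 8 log2 fold changes were above 0, with a median of 0.78, against 0.092 and 55.6% above 0 over all genes. Slc1a2 and Aldh1l1 turned below 0 when 1 library was left out. In 5 members, Nes, Fabp7, Slc1a3, Sox9 and Hopx, the KO RA libraries lay above all WT RA libraries with TMM scaling. On that scale 9.97% of all genes did. With library totals alone Fabp7 and Hopx did, and the share of all genes was not counted there. Without KO RA replicate 3 3 of 8 members, Nes, Fabp7 and Hopx, were called higher in KO RA, where 4.42% of all genes were.

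**Figure D3:**
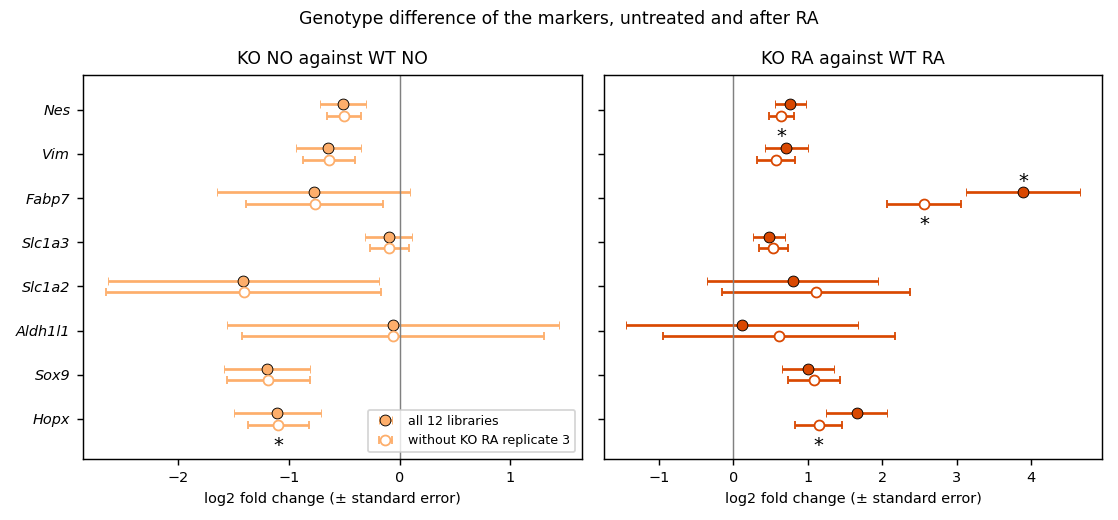
Log2 fold change of KO over WT cells (horizontal axis, ± standard error) for the 8 tested members, untreated (left) and after RA (right), from all 12 libraries (filled) and without KO RA replicate 3 (open); asterisks mark an adjusted p under 0.05. The filled points lie below 0 on the left and above 0 on the right, and Fabp7 is the filled point with an asterisk.

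The test of whether the RA response itself differed between KO and WT cells called none of the 8 members and none of the 16502 genes by edgeR, with 913 genes above and 510 below 0 at an unadjusted p under 0.05. Of the members 5 had an unadjusted p under 0.05, as had 8.62% of all genes. DESeq2 called 5 members and 1.87% of all genes, and limma-voom 3 members and 5.97% of all genes. All 8 estimates were above 0, as were 56.1% of all genes, but that of Aldh1l1 (0.18 ± 2.16) turned below 0 with limma-voom and when 1 library was left out. The smallest unadjusted p was that of Hopx, at 2.76 ± 0.56 on the log2 scale (adjusted p = 0.189), followed by Nes at 1.28 ± 0.29 (adjusted p = 0.286), Sox9 at 2.20 ± 0.52 (adjusted p = 0.286) and Fabp7 at 4.67 ± 1.14 (adjusted p = 0.298). Without KO RA replicate 3 edgeR called Nes (1.15 ± 0.23, adjusted p = 0.0425) and Hopx (2.24 ± 0.42, adjusted p = 0.0365), where 1.34% of all genes were called. By edgeR with all 12 libraries, then, the rise of Nes, Vim and Fabp7 in KO cells was not shown to differ from the WT response.

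Genes of other cell types moved in the same groups. The summed level of 14 mesenchymal markers was 130 to 147 CPM in WT NO, 208 to 411 in WT RA and 117 to 135 in KO NO, and 574, 367 and 1599 in KO RA. Of these markers 3 rose in WT cells after RA and 7 in KO cells (5 and 8 without KO RA replicate 3). Among them were Prrx1, a mesenchymal transcription factor, and the collagen genes Col1a2 and Col3a1. Of all genes 0.321% rose in WT cells and 3.89% in KO cells (5.65% and 8.48% without that library), and 1.59% fell in KO cells. These shares are the background for each list below. Prrx1 went from 0.591 to 0.669 CPM in WT NO to 10.7 to 15.9 in WT RA (log2 fold change 4.33 ± 0.44, adjusted p = 0.00531), and from 0.205 to 0.475 in KO NO to 14.5 to 37.1 in KO RA (6.15 ± 0.48, adjusted p = 0.000168). With TMM scaling, Vim had the order of the mesenchymal sum within each RA group, with WT RA replicate 2 highest in WT RA and KO RA replicate 3 highest in KO RA. With library totals alone Vim was 705, 532 and 251 CPM in KO RA replicates 1 to 3, so its order there rests on the scaling. A few genes carried the sum of KO RA replicate 3. Tagln, a smooth muscle actin-binding protein, held 763 CPM there against 78.8 and 45.4 in the other KO RA libraries, and Dcn, a matrix proteoglycan, 345 against 23.0 and 12.7. The collagen genes went the other way, with Col3a1 at 71.7, 35.3 and 15.9 CPM in KO RA replicates 1 to 3 and Col1a2 at 30.8, 13.3 and 10.4. Prrx1 was at 37.06, 14.51 and 16.85 CPM in the same libraries. With TMM scaling, Fabp7 had the opposite order in WT RA, 7.12 CPM where the sum was lowest and 2.04 where it was highest. In KO RA it had the same order as the sum on that scale. The part of the mesenchymal genes in the Vim, Sox9 and Fabp7 results was not tested.

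**Figure D4:**
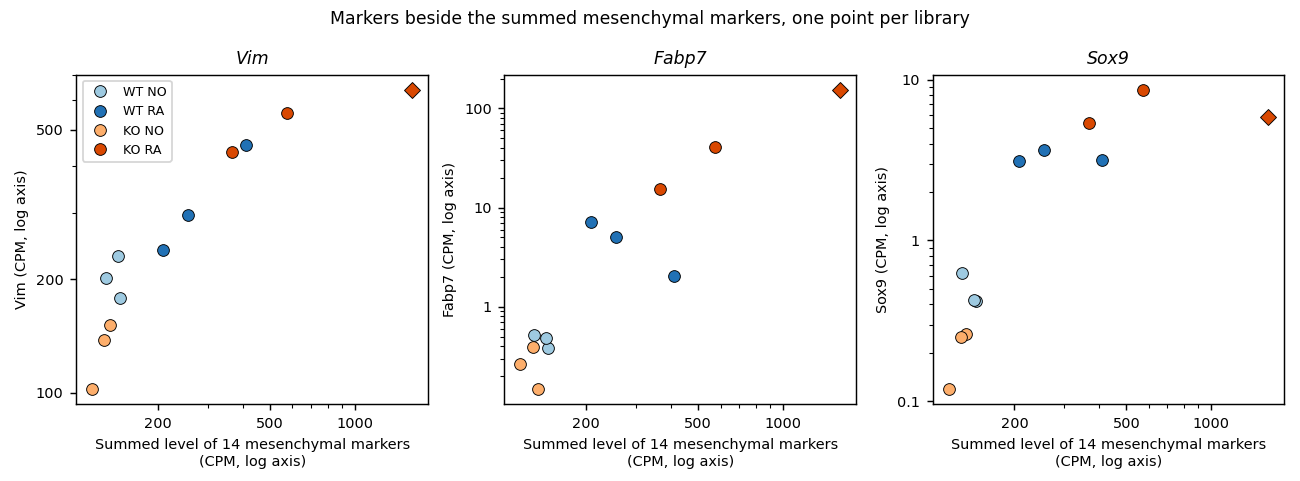
Level of Vim, Fabp7 and Sox9 (vertical axes, CPM, log scale) against the summed level of 14 mesenchymal markers (horizontal axis, CPM, log scale), with 1 point per library coloured by group and KO RA replicate 3 as a diamond. The untreated libraries sit between 117 and 147 CPM on the horizontal axis and the RA libraries between 208 and 1599, and the 3 WT RA points fall from left to right for Fabp7. CPM use TMM-scaled totals, on which the place of the diamond depends.

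Neuronal markers summed to 162 to 288 CPM in WT NO, 243 to 288 in WT RA, 215 to 228 in KO NO and 284 to 412 in KO RA, and 1 of the 19 tested rose in WT cells and 6 in KO cells after RA (6 and 7 without KO RA replicate 3). In the fit without that library 3 neuronal markers also fell in WT cells, Rbfox3 by 2.73 ± 0.70, Syn1 by 1.33 ± 0.26 and Ina by 1.26 ± 0.17 on the log2 scale (adjusted p = 0.0345, 0.0132 and 0.00307), and Ina fell in KO cells (adjusted p = 0.0268). Gap43, a protein of growing axons, rose in KO cells by 3.45 ± 0.37 (adjusted p = 0.000876) and was higher in KO RA than in WT RA by 1.85 ± 0.35 (adjusted p = 0.0358). Nhlh2, a factor of young neurons, held at most 0.031 CPM in the untreated libraries, and was called higher after RA at 1.54, 1.89 and 2.58 CPM in WT cells and 5.91, 1.02 and 1.59 in KO cells. Ncam1, a neural adhesion molecule, rose in KO cells by 2.23 ± 0.39 (adjusted p = 0.00992). Oligodendrocyte markers summed to at most 25.2 CPM in any library, with Olig2 and Sox10 at or near 0. Mbp, which encodes myelin basic protein, was the called gene of that list and rose in KO cells after RA by 2.79 on the log2 scale (adjusted p = 0.0431), from a mean of 1.83 to 12.6 CPM. The 9 haematopoietic and microglial markers summed to at most 1.35 CPM with none passing the filter. The 8 neural progenitor markers checked, Nes, Pax6, Cdh2, Msi1, Sox1, Sox2, Sox3 and Otx2, all passed the filter, and their sum was 296 to 434 CPM in 11 libraries and 191 in KO RA replicate 3. The line also carried pluripotency genes, which summed to 1772 to 4456 CPM over the 12 libraries, and Pou5f1, named here after its value was seen, had a mean of 1852 CPM in WT NO and 985 in KO RA. Lin28a, an RNA-binding protein of early progenitors, was the only one of the 11 tested to be called after RA, and fell in KO cells by 1.81 ± 0.41 on the log2 scale (adjusted p = 0.0305). Epithelial and endothelial markers summed to 80.4 to 206 CPM, with 3 called higher and 1 lower in KO cells after RA. Proliferation genes summed to 1215 to 2428 CPM, with 2 of 12 called lower in KO cells after RA and none called in WT cells. In WT cells 2 had an unadjusted edgeR p under 0.05, as had 12.5% of all genes. The part of these lists in the results of the members was not tested.

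Other radial glia genes were split. Of all genes 1.59% fell in KO cells after RA. The untreated KO cells exceeded WT cells in 0.788% of all genes and fell short in 0.351%, and the RA-treated ones in 0.885% and 0.358%. Of 24 tested, 5 rose in KO cells after RA and none was called in WT cells. In WT cells 5 had an unadjusted edgeR p under 0.05, as had 12.5% of all genes, and 4 rose without KO RA replicate 3. In KO cells 8 rose without that library. The median log2 fold change was 0.72 in KO cells and 0.18 in WT cells. Tnc, a matrix protein of the radial glia niche, rose by 5.86 ± 0.62 in KO cells (adjusted p = 0.000744), or 5.23 ± 0.50 without KO RA replicate 3, from 0.530 to 0.592 CPM in KO NO to 18.6 to 56.5 in KO RA, and was higher in KO RA than in WT RA by 3.41 ± 0.55 (adjusted p = 0.0165), or 2.79 ± 0.45 without it. Plpp3, a lipid phosphatase, rose by 2.49 ± 0.38 (adjusted p = 0.00581) and Cdh2, the cadherin of the neuroepithelium, by 1.28 ± 0.23 (adjusted p = 0.0102) in KO cells. Pax6, a transcription factor of dorsal radial glia, was lower in KO than in WT cells both untreated (−2.50 ± 0.45, adjusted p = 0.0264) and after RA (−2.21 ± 0.44, adjusted p = 0.0396). Its CPM was 9.30, 8.80 and 4.12 in WT NO and 0.791, 1.10 and 2.01 in KO NO. Ptprz1, a receptor phosphatase of radial glia, was higher in KO NO than in WT NO by 1.83 ± 0.31 (adjusted p = 0.0194). Fut4, which makes the CD15 epitope, was also called there, at 15.2 to 27.4 estimated counts in KO NO and 0 in all 6 WT libraries.

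Of 32 further astrocyte genes 18 passed the filter, and their levels were uneven. S100b, Agt and Ntsr2, which mark maturing astrocytes, were at or near 0 throughout. Apoe, Gja1 and Cst3 had means of 345, 204 and 186 CPM over the 12 libraries. These genes are named here for their levels. Sparcl1, a secreted protein of astrocytes and of vessels, rose by 4.79 ± 0.58 in WT cells (adjusted p = 0.00999) and 6.18 ± 0.61 in KO cells (adjusted p = 0.000483). Its CPM went from 0.305 to 1.70 in the untreated groups to 23.0 to 28.5 in WT RA and 49.9 to 106 in KO RA. Chrdl1, a secreted BMP antagonist, rose in KO cells by 1.78 ± 0.46 (adjusted p = 0.0492). The median log2 fold change of the 18 genes was 0.018 in KO cells and −0.040 in WT cells after RA. The 18 astrocyte genes as a list lay near the median of all genes, with Sparcl1 and Chrdl1 as the called exceptions.

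Of the regulators of gliogenesis 39 of 41 passed the filter. In KO cells 9 rose after RA, or 14 without KO RA replicate 3, where 3.89% and 8.48% of all genes did. None was called in WT cells by edgeR, where 10 had an unadjusted p under 0.05, as had 12.5% of all genes. Without KO RA replicate 3, 6 rose in WT cells, where 5.65% of all genes did. Nfix, a nuclear factor I gene, rose in KO cells by 4.16 ± 0.58 (adjusted p = 0.00366), from 0.112 to 0.237 CPM to 1.78 to 5.60 CPM. Nfib, of the same family, rose by 2.44 ± 0.46 (adjusted p = 0.0131), and Bmp2, a BMP ligand, by 3.65 ± 0.62 (adjusted p = 0.00857). The median log2 fold change of the 39 genes after RA was 0.74 in KO cells and 0.34 in WT cells.

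The families of the members show how particular genes stood among their relatives. In the intermediate filament family of 22 genes Vim was the highest by mean CPM over the 12 libraries, at 302, followed by the nuclear lamin Lmnb1 at 115 and by Nes. Of 16 tested, Vim, Nes and the nuclear lamin Lmna rose in KO cells after RA, and Nefh, the heavy neurofilament gene, fell by 2.44 ± 0.52 on the log2 scale (adjusted p = 0.0233). Among the SLC1 transporters Slc1a4 (38.2 CPM) and Slc1a5 (36.2 CPM), which carry neutral amino acids, were higher than Slc1a3 and Slc1a2. Slc1a5 fell by 1.39 ± 0.34 on the log2 scale in KO cells after RA (adjusted p = 0.0397), the only call in that family. Among the fatty acid binding proteins Fabp5 (575 CPM) and Fabp3 (82.1 CPM) had the highest means, and Fabp7 and Fabp4, the adipocyte form, rose in KO cells after RA (Fabp4 by 3.87 ± 0.80, adjusted p = 0.0204, or 2.63 ± 0.59 without KO RA replicate 3). Fabp5 ranged from 174 to 286 CPM in KO NO and from 736.5 to 932.5 in WT RA, and was 272, 374 and 1345 in KO RA. Its RA response in KO cells was not called by edgeR (adjusted p = 0.129, or 0.347 without KO RA replicate 3). KO RA against WT RA gave −0.38 ± 0.56 on the log2 scale (adjusted p = 0.763), and −1.43 ± 0.37 without that library (adjusted p = 0.038). Of 11 aquaporins 2 passed the filter, Aqp3 and Aqp11, with means of 1.97 and 0.691 CPM, and neither was called. Among 6 SoxE and SoxD genes Sox9 alone was called, and Sox13 (26.1 CPM) and Sox6 (4.54 CPM) had higher means. Of the folate genes other than Aldh1l1, Gart fell by 1.15 ± 0.27 and Mthfd2 by 1.12 ± 0.29 in KO cells after RA (adjusted p = 0.0342 and 0.0478), and Folr1 and Tyms had the highest means.

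The genes whose log2 CPM ran most like a called member over the 12 libraries were listed as a description. For Sox9 they were Cdh11, a mesenchymal cadherin (Pearson r = 0.996), Sorcs1 (0.993) and Gadd45g (0.988). For Fabp7 they were Plat (0.972), Calcrl (0.967) and Ndn (0.967), for Vim P4ha3, Gxylt2 and Nuak1 (0.981 to 0.962), and for Nes an unnamed gene (ENSMUSG00000120507), Fam177a and Flnc (0.948 to 0.909). These libraries share 4 groups, so a large r reflects the group means as well as the scatter within them. Among the members themselves Vim and Sox9 had an r of 0.915, Fabp7 and Sox9 0.878 and Vim and Fabp7 0.836.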

How the data were processed

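NE-4C cells, WT and Faf2 KO, with and without RA, were profiled by bulk RNA sequencing in 12 libraries, 3 per group. The authors ran nf-core/rnaseq (version 3.22.2, STAR and Salmon, GRCm39) and deposited 1 table of estimated counts per gene and library, not pooled. In genes seen in 1 library only, the values fell with exonic length (Spearman rho −0.685 over 3851 genes), so they were read as per-length values. They were rounded and tested with edgeR 4.0.16 in R 4.3.3 (quasi-likelihood, robust, TMM scaling, 1 model of 4 groups, filterByExpr, Benjamini-Hochberg adjustment). CPM values use TMM-scaled totals. Alternatives were DESeq2 1.42.0, limma 3.58.1 (voom), other scalings and filters, and leaving out libraries. One alternative, library totals without TMM factors, was added after the data were seen. The fit was tested on simulated data. The members and the gene lists were chosen with earlier results of these data known, and named genes from a list were the 3 called with the smallest p per comparison, with the 2 highest by mean in the families. Replicate p-values measure the spread between passages of 1 line. Replicate numbers did not pair the libraries: 2 of 18 same-number correlations exceeded 0.1. Positions and the printed windows follow GENCODE M39 on GRCm39, which holds 56310 of the 57010 gene IDs. The floor of 3 counts is a convention on length-scaled values, does not equal 3 reads and takes no account of the spread between libraries.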

Additional observations from a re-analysis of the deposited data

How the results depend on the processing

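In the untreated genotype comparison limma-voom called 1 where edgeR called 0. After RA, KO against WT, the 1 call became 4 with DESeq2 and 5 with limma-voom, which called 7.97% and 18.1% of all genes against 1.24%. It became 0 with a minimum of 10 counts in each library (0.691% of all genes) or with the 2 groups fitted alone (0.108%). For RA in WT cells the 1 call became 3 with DESeq2 (5.6% of all genes) or the 2 groups alone (3.71%), and 5 with limma-voom (21.6%). It became 0 with the replicate block (0.0606%) or with library totals (0%). For RA in KO cells the 4 calls became 2 with a minimum of 10 counts (5.71% of all genes), with the 2 groups alone (1.28%) or with library totals (0.848%). The minimum of 10 counts left Fabp7 and Sox9 untested, since their lowest libraries held 4.51 and 4.41 estimated counts. It could therefore not call them, and the fall in calls under it says nothing about these genes. For the difference in RA response, 0 calls became 5 with DESeq2 and 3 with limma-voom. Leaving out 1 library gave 0 to 1, 0 to 3, 0 to 3, 3 to 4 and 0 to 2 calls in these 5 comparisons. The share of all genes called in these fits ran from 0.231% to 8.78%, 0.109% to 9.85%, 0% to 10.8%, 1.12% to 16% and 0% to 1.34%. The replicate block gave 0, 1, 0, 4 and 0, beside 0.339%, 0.358%, 0.0606%, 2.83% and 0% of all genes. With it Sox9 in WT cells had an adjusted p of 0.0651 by edgeR. Of the libraries, 0 of 12 correlated best with others of their number. Library totals moved the median of all genes to −0.26 for RA in WT cells and −0.17 for RA in KO cells.

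Signs turned in comparisons of Slc1a3, Slc1a2 and Aldh1l1 in which no setting called them. Untreated, KO against WT, Slc1a3 was 0.045 and Aldh1l1 3.44 with limma-voom, and Aldh1l1 0.15 with the replicate block. For RA in WT cells Aldh1l1 was 1.13 with limma-voom. For RA in KO cells Slc1a3 was 0.032 with DESeq2, 0.034 with its size factors, 0.019 with a minimum of 10 counts and 0.00017 with limma-voom. Aldh1l1 in the difference of responses was −1.15 with limma-voom. Leaving out 1 library, untreated Slc1a3 ran from −0.20 to 0.068, Slc1a2 from −3.53 to 0.099 and Aldh1l1 from −0.63 to 4.17, KO RA against WT RA Slc1a2 ran from −0.22 to 1.32 and Aldh1l1 from −0.47 to 1.65, Aldh1l1 for RA in WT cells ran from −2.15 to 3.63, Slc1a3 and Aldh1l1 for RA in KO cells ran from −0.079 to 0.041 and from −1.0 to 0.071, and Aldh1l1 in the difference of responses ran from −4.08 to 1.71. The cause was not tested. Depth limits Gfap and Aqp4, at or near the floor of 3 counts.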
